A study of Mus musculus with 9 samples.

Results

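The open chromatin of 48 genes of DNA replication and mitosis was examined in the mouse breast carcinoma line D2A1-d, with and without hairpins against the Mediator subunit Med1. The members were fixed by name as 37 replication genes and 11 mitotic genes. A peak was given to a member when its centre lay inside the gene, or otherwise when an end of that member was the nearest protein-coding gene end within 50 kb. By this rule 157 of the 75936 peaks of the deposited table belonged to 47 of the 48 genes, with 126 peaks in replication genes and 31 in mitotic genes. Mcm4 was the member without a peak, because the peak at its end (chr16:15637295-15637796) lay inside the neighbouring gene Prkdc. Gene-end peaks were those centred no more than 1 kb from an annotated end of their member, and there were 51 of these in 43 genes. The other 106 peaks were 59 inside gene bodies and 47 between genes.

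Accessibility was measured by bulk ATAC-seq, in which a transposase cuts and tags open DNA, in 9 libraries. The groups were a non-targeting control hairpin (NTC), shMed1 #2 and shMed1 #4, with 3 libraries each, all in D2A1-d cells transduced with a hairpin and otherwise labelled untreated. The labels give the genotype as WT for NTC and as Med1 Knockdown for both hairpins, and name breast as the tissue. Libraries are labelled as biological replicates, with nothing on separate cultures or on whether transduced cells were pooled or cloned, so the p-values reflect the spread among these libraries alone, which may be technical. The comparison asks what a hairpin against Med1 does to open chromatin.

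Replication begins when the origin recognition complex, with Cdc6 and Cdt1, loads the MCM2-7 helicase onto DNA in G1. Cdc45 and the GINS complex then switch that helicase on, primase and the polymerases start synthesis, and PCNA, loaded by replication factor C, holds the polymerases on the template. Mitosis is driven by Cdk1 with cyclins A and B, the Polo and Aurora kinases, and a checkpoint that restrains Cdc20 until chromosomes are attached. Many genes of both programmes are controlled at their promoters by E2F factors, by CCAAT boxes bound by NF-Y, and by the CHR element that recruits the DREAM and MuvB complexes, with replication genes better known for E2F sites and mitotic genes for the CHR. Mediator carries signals from such factors to RNA polymerase II, and Med1 is one of its subunits.

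Totals of the normalized counts over all peaks ran from 41.2 to 44.2 M per library, and log2 values correlated across peaks at r = 0.988 to 0.991 within groups and at 0.970 to 0.982 between them. The gene-end peak of Med1 itself (chr11:98192989-98193490) held 2066, 2141 and 2134 normalized counts in NTC, 2152, 2049 and 1869 in #2, and 2013, 1887 and 2014 in #4, a log2 difference of -0.08 ± 0.04 (limma, adjusted p = 0.132), and a hairpin acts on the transcript, so this does not show whether Med1 was depleted. Of 8 epithelial and mammary carcinoma markers, Krt18 and Krt14 had gene-end peaks, summing to 502 in NTC, 396 in #2 and 449 in #4. Krt8, Krt19, Epcam, Cdh1, Krt5 and Krt17 had none. Of 4 mesenchymal markers, Vim (9484 in NTC), Fn1 (3358) and Zeb1 (242) had gene-end peaks, and Cdh2 had none. Their sums were 13084 in NTC, 13036 in #2 and 13529 in #4. Of 4 endothelial markers, Cdh5 had a gene-end peak (179, 166 and 149.9), and neither of the 2 fat markers had one. The part of other cells in the results was not tested.

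To show what lies at the starts of these genes, the 250 bases before the RefSeq start of 6 members are printed, 5′ to 3′ on the gene's strand, from RefSeq on GRCm38.p6 (the same assembly as mm10). Mcm2, Gins3, Top2a and Cdk1 were chosen because their start peaks were lower with the hairpins, Orc2 because its start peak was higher, and Mcm5 because it holds E2F words and its start peak did not pass the test. Capitals mark an E2F word (TTTCCCGC, TTTGGCGC, TTTGCCGC or TTTCGCGC), the CHR word TTTGAA or a CCAAT box (CCAAT), on either strand, and words that overlap run together. The windows are chr6:88898781-88899030 (minus strand) for Mcm2, chr8:95633309-95633558 (plus strand) for Gins3, chr8:75109259-75109508 (plus strand) for Mcm5, chr1:58505110-58505359 (minus strand) for Orc2, chr11:99024190-99024439 (minus strand) for Top2a and chr10:69352913-69353162 (minus strand) for Cdk1.
Mcm2: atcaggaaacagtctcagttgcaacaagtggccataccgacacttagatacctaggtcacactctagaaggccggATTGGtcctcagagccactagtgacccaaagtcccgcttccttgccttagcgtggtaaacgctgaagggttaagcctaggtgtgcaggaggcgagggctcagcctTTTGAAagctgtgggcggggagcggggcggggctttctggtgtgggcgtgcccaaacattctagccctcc
Gins3: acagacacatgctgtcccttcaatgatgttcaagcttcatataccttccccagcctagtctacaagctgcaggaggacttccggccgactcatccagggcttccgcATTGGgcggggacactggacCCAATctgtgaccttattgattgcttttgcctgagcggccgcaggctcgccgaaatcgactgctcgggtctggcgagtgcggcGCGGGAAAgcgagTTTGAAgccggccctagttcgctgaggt
Mcm5: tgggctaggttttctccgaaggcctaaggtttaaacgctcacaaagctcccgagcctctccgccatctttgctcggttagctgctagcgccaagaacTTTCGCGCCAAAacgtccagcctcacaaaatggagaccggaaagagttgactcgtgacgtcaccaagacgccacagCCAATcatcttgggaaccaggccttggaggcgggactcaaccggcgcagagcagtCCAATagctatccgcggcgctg
Orc2: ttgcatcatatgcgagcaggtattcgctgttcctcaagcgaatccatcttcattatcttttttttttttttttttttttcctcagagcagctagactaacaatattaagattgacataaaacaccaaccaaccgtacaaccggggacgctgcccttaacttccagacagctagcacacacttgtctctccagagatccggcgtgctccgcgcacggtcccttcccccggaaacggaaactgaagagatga
Top2a: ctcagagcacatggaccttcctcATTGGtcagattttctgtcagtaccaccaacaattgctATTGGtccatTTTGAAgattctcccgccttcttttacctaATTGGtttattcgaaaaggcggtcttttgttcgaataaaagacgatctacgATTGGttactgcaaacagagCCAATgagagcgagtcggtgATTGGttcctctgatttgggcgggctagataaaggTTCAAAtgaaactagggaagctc
Cdk1: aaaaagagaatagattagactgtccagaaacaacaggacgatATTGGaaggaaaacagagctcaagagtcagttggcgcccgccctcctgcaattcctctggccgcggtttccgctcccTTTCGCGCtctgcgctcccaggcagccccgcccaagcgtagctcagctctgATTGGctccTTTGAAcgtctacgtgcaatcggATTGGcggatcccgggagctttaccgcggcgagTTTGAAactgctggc

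The Top2a window held 6 CCAAT boxes, 5 of them on the minus strand of the gene, and 2 CHR words. Cdk1 held 1 E2F word, 2 CHR words and 3 CCAAT boxes. Gins3 had an E2F word and a CHR word close to its start, at 41 to 34 and 28 to 23 bases before it, and 2 CCAAT boxes. Mcm5 carried 2 overlapping E2F words, one on each strand, and 2 CCAAT boxes, Mcm2 held 1 CHR word and 1 CCAAT box, and the Orc2 window held none of the words. RefSeq gave starts for 38 of the 48 members, with 42 windows in all. An E2F word was in 10 of the 42 windows (23.8%), against 2.37% of the 21045 windows of all protein-coding genes. Replication genes held it in 9 of 33 windows (27.3%) and mitotic genes in 1 of 9 (11.1%). The CHR word was in 5 of the 9 mitotic windows (55.6%) and in 3 of the 33 replication windows (9.09%), against 14.1% of all windows. A CCAAT box was in 9 of 9 mitotic windows and in 20 of 33 replication windows (60.6%), against 35.6% of all. A match is a description of the letters and not of a bound site.

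Gene-end peaks of the members were among the stronger sites of the library. In NTC the median replication gene-end peak held 1751 normalized counts (range 60.8 to 4724) and the median mitotic one 1394 (53.7 to 5433), against 1089.7 over all 12227 gene-end peaks. Of the replication peaks 31 of 38, and of the mitotic peaks 10 of 13, lay above that median. Peaks elsewhere in the members were weak, with NTC medians of 131 in replication genes and 99.5 in mitotic genes against 172 over all such peaks. Of the gene-end peaks, 25 in replication genes and 9 in mitotic genes lay within 506 bases of a RefSeq start, 5 lay at the far end of the gene, and 12 belonged to genes whose start was not in the table used here. Another gene's end was also within 1 kb of 8 replication and 2 mitotic peaks, so those peaks cannot be given to 1 gene.

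With the hairpins, on the deposited scale, more gene-end peaks were lower than higher in replication genes, in mitotic genes and over all gene ends. The replication shares were close to those of all gene ends. The lower share of the 13 mitotic peaks was larger, a difference that was not tested. In the mean of both hairpins against NTC, 14 of 38 replication gene-end peaks were lower (36.8%) and 5 higher (13.2%), where 32.7% of all gene-end peaks were lower and 14.4% higher (limma, adjusted p under 0.05 over all peaks tested). Of the 13 mitotic gene-end peaks, 7 were lower (53.8%) and 1 higher (7.69%). The median log2 fold change was -0.04 in replication peaks and -0.16 in mitotic peaks, against -0.07 over all gene-end peaks. All 157 member peaks passed the filter on low values. How many were lower depended on the scaling: with each library centred on its median gene-end peak, 4 replication peaks were lower and 9 higher, and 3 mitotic peaks were lower and 2 higher, where 12.7% of all gene-end peaks were lower and 26.4% higher. With quantile scaling the replication counts were 23 lower and 2 higher, and the mitotic ones 11 lower and 0 higher, where 47.7% of all were lower and 7.40% higher. Of the 59 member peaks called in the mean of both hairpins, at gene ends and elsewhere, 24 kept their call and direction under all 4 other scalings. Among the gene-end peaks these were the peaks of Mcm2, Gins1, Gins3, Pole, Top2a, Bub1 and Aurka, which were lower, and the far-end peaks of Pola2 and Rfc4, which were higher. The share of all called peaks that keep their call under these scalings was not counted, so the members cannot be set against it. In bulk libraries, fewer cells with a site open and less opening per cell cannot be told apart.

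Singly, the hairpins gave counts that can be set side by side but share the NTC libraries. With #2, 13 replication gene-end peaks were lower and 5 higher, and 7 mitotic ones were lower and 1 higher, where 35.4% of all gene-end peaks were lower and 12.0% higher. With #4, 11 replication peaks were lower and 5 higher, and 5 mitotic peaks were lower and 1 higher, where 22.5% of all were lower and 14.3% higher. Centred on gene-end peaks, #4 gave 2 replication peaks lower and 10 higher and 3 mitotic peaks lower and 3 higher, where 9.10% of all were lower and 23.2% higher. The same scaling gave 5 and 8, and 3 and 1, with #2, where 12.9% of all were lower and 23.7% higher. With quantile scaling the replication counts were 20 lower and 1 higher with #4, and 23 and 2 with #2, where 34.3% and 51.9% of all were lower. The 11 lower replication peaks of #4 numbered 6 without NTC replicate 2 and 4 without NTC replicate 3, and leaving out shMed1 #4 replicate 3 gave 7. The lower share of all gene-end peaks with #4 then went from 22.5% to 16.4%, 14.9% and 18.4%. The 1 mitotic peak higher with #2, at Ccna2, was lost without NTC replicate 2, NTC replicate 3 or shMed1 #2 replicate 2.

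**Figure D1:**
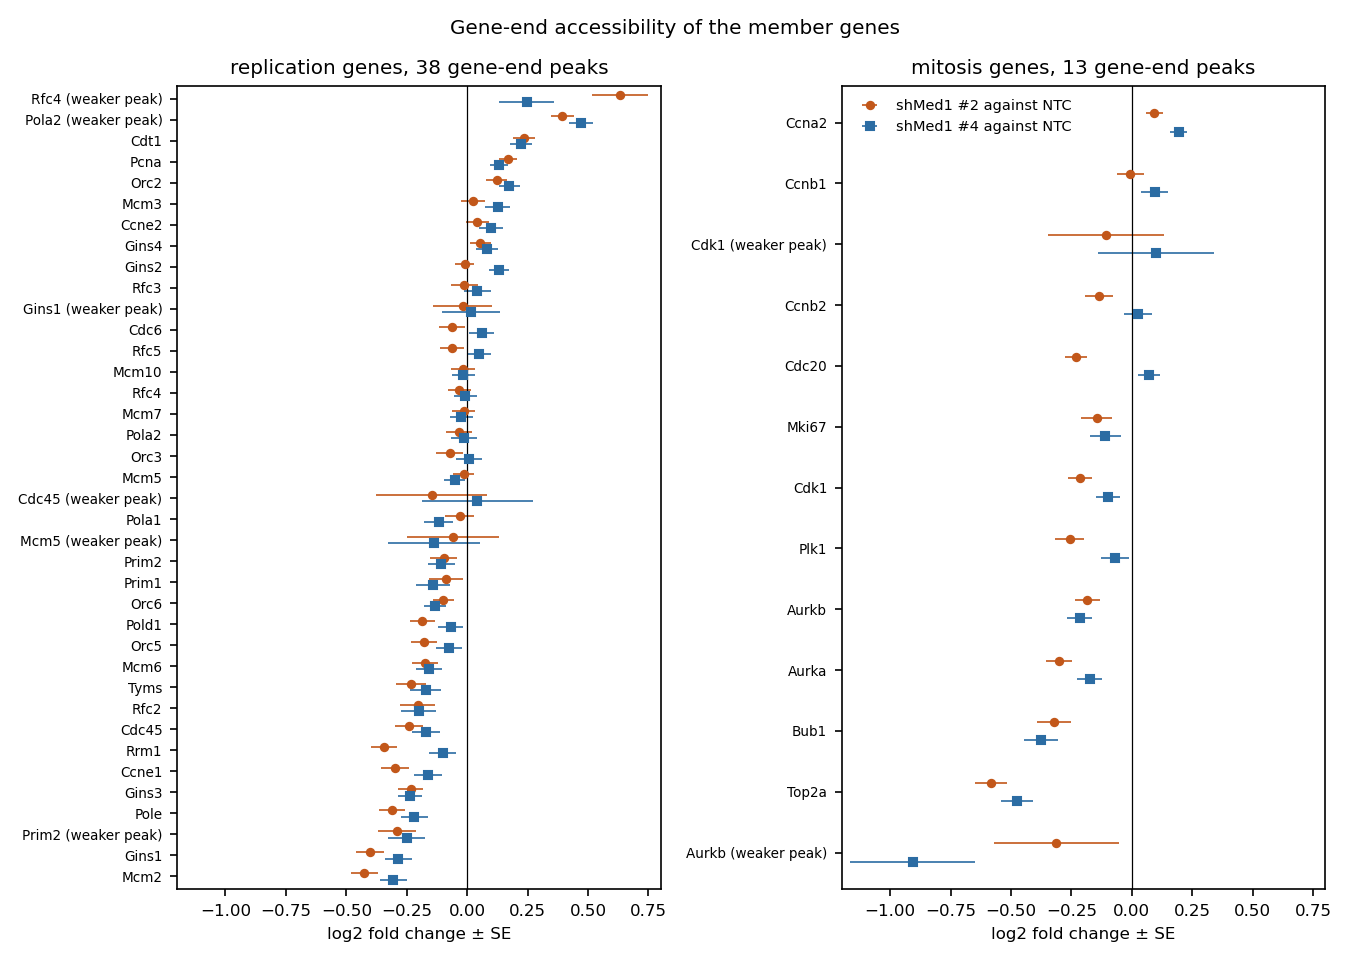
Log2 fold change with its standard error for the 38 replication and 13 mitotic gene-end peaks, in shMed1 #2 (circles) and shMed1 #4 (squares) against the same 3 NTC libraries, ordered by the mean of both. The lowest strong peaks are Mcm2 and Gins1 on the left and Top2a and Bub1 on the right, and among the peaks right of 0 those of Pcna and Ccna2 change sign in both hairpins with quantile scaling, as do Orc2 in #2 and Gins2 in #4.

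The loading of the helicase at origins involves the ORC subunits, Cdc6, Cdt1 and the MCM proteins themselves. The largest drop of a gene-end peak among them was at Mcm2, a subunit of the MCM2-7 helicase, whose start peak (chr6:88898498-88898999) contains 219 of the 250 bases printed above. It held 1599.9, 1649.99 and 1705 in NTC, 1299, 1185 and 1206 in #2, and 1298, 1351 and 1358 in #4. Every hairpin library lay below every NTC library, and the log2 fold change was -0.37 ± 0.05 in the mean of both hairpins (limma, adjusted p = 2.66e-08), -0.43 with #2 and -0.31 with #4. Mcm6, another subunit, fell less (chr1:128359343-128359844), with 1689 ± 62.6 in NTC, 1497 ± 57.4 in #2 and 1513 ± 45.4 in #4 (mean ± SD, n = 3). The log2 difference came to -0.17 ± 0.05 (limma, adjusted p = 0.0037), and -0.14 (adjusted p = 0.0502) without NTC replicate 2. The start peaks of Mcm3, Mcm5 and Mcm7 did not pass, with log2 fold changes of 0.08 ± 0.04, -0.03 ± 0.04 and -0.02 ± 0.04. An end of Ap4m1 also lies within 1 kb of the Mcm7 peak. The peak at the end of Mcm4 that lies inside Prkdc was at -0.05 ± 0.04. The 6 subunits form a single ring in equal numbers, and their start peaks ranged from -0.37 to 0.08.

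Among the licensing factors, Cdt1, which brings the helicase to ORC, had a gene-end peak that rose with both hairpins (chr8:122567259-122567760, centred 506 bases before its start). It held 2933, 2704 and 2886 in NTC, 3135, 3424 and 3471 in #2, and 3481, 3267 and 3195 in #4, so that all 6 hairpin libraries were above the 3 NTC libraries. The log2 fold change was 0.23 ± 0.04 (limma, adjusted p = 5.75e-06), and 0.09 with quantile scaling (adjusted p = 0.053). The start peak of Orc2 (chr1:58504759-58505260) was higher too, at 2838 ± 113 in NTC, 3089.7 ± 56.9 in #2 and 3202 ± 80 in #4 (SD, n = 3) and a log2 difference of 0.15 ± 0.04 (limma, adjusted p = 0.00126), and in #2 alone its sign turned with quantile scaling (-0.01). In contrast, Orc5 (-0.13 ± 0.05) and Orc6 (-0.12 ± 0.04) fell slightly, with adjusted p = 0.0251 and 0.0149 (limma), and so did the start peaks of Orc1 and Orc4, which the annotation places inside the gene, at -0.13 ± 0.04 and -0.14 ± 0.05. The Orc1 start peak (chr4:108579064-108579565) held 2478, 2496 and 2579 in NTC, 2347, 2283 and 2139 in #2, and 2399.8, 2275 and 2327 in #4, with every hairpin library below NTC. It lost its call without NTC replicate 3 (limma, adjusted p = 0.0624). Ends of Prpf38a, Mbd5, Vps35 and Rars2 lie within 1 kb of the start peaks of Orc1, Orc4, Orc6 and Orc3, in that order. The Orc1 peak also lies inside Prpf38a, and none of those peaks can be given to 1 gene. Orc3 (-0.03 ± 0.05) and the start peak of Cdc6 (-0.00 ± 0.05) did not pass, so that 1 ORC subunit was higher, 4 were lower and 1 did not pass at their starts, where 35.0% of all peaks near a start were lower and 14.7% higher. Those calls are for the mean of both hairpins. Tested singly, Orc1, Orc4 and Orc5 were lower with #2 and did not pass with #4 (limma, adjusted p = 0.0742, 0.323 and 0.300). Orc6 was lower with #4 and did not pass with #2 (limma, adjusted p = 0.0715). The mean calls also depended on the scaling. That of Orc2 ended with equal totals, quantile and cyclic loess scaling. Those of Orc1, Orc4, Orc5 and Orc6 ended when centred on gene-end peaks.

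Activation of the helicase needs Cdc45 and the 4 GINS subunits. Gins1 fell most (chr2:150909364-150909865), holding 1617, 1778 and 1806 in NTC, 1349, 1293 and 1289 in #2, and 1391, 1509 and 1368 in #4. The log2 difference came to -0.34 ± 0.05 (limma, adjusted p = 1.3e-07), with no overlap between hairpin and NTC libraries. Gins3, whose printed window lies whole inside its peak (chr8:95633296-95633797), held 2572, 2702 and 2899 in NTC, 2447, 2385 and 2120.00 in #2, and 2356, 2219.6 and 2354 in #4 and fell as well, with a log2 difference of -0.24 ± 0.04 (limma, adjusted p = 2.35e-05). The other 2 subunits did not pass, with 0.06 ± 0.03 at Gins2 and 0.07 ± 0.04 at Gins4, so the subunits of this 4-part complex ran from -0.34 to 0.07. At Gins2 the hairpins were unlike each other: #4 was higher than NTC (0.13, though negative with quantile and cyclic loess scaling) and higher than #2 (0.14). The start peak of Cdc45 (chr16:18811503-18812004) held 1986, 2175 and 2227 in NTC, 1935, 1717 and 1756 in #2, and 2033, 1954 and 1698 in #4, a log2 difference of -0.21 ± 0.05 (limma, adjusted p = 0.000778). The #2 libraries were all below NTC and 1 of the #4 libraries overlapped it. An end of Ufd1 lies beside it, and a second peak between the genes that the rule gave to Ufd1 (chr16:18812017-18812518) was also lower, at -0.19 ± 0.05. Mcm10, which helps to fire the helicase, was at -0.02 ± 0.04 and did not pass.

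At the replication fork, the catalytic subunit of polymerase epsilon, Pole, fell (chr5:110286122-110286623), with 1613, 1788 and 1757 in NTC, 1426, 1394 and 1338 in #2, and 1503, 1488 and 1439.97 in #4. All hairpin libraries were below NTC, at a log2 difference of -0.26 ± 0.05 (limma, adjusted p = 1.24e-05), and the same peak is within 1 kb of an end of Pxmp2. The polymerase delta subunit Pold1 was lower by less (-0.13 ± 0.04, adjusted p = 0.0193, limma). Tested singly, it passed with #2 and not with #4 (limma, adjusted p = 0.00295 and 0.328), and an end of Nr1h2 lies within 1 kb. Prim2, the large primase subunit, had 2 neighbouring gene-end peaks, of which the weaker (chr1:33669563-33670064) held 939, 963 and 1039 in NTC, 908, 747 and 755 in #2, and 953, 819.5 and 714 in #4 and was lower at -0.27 ± 0.07 (limma, adjusted p = 0.00114). All #2 libraries were below NTC, and 1 of the #4 libraries overlapped it. The stronger Prim2 peak was at -0.10 ± 0.05 and did not pass, nor did the starts of the other primase subunit Prim1 (-0.11 ± 0.06) and the polymerase alpha subunits Pola1 (-0.07 ± 0.05) and Pola2 (-0.02 ± 0.05). The peak at the far end of Pola2, 23698 bases from its start (chr19:5940258-5940759), rose by contrast. It held 1809, 1740.3 and 1755 in NTC, 2223, 2293 and 2461 in #2, and 2489, 2369.8 and 2500.5 in #4, a log2 difference of 0.43 ± 0.04 (limma, adjusted p = 7.57e-12), the smallest adjusted p of the members' gene-end peaks that were higher.

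PCNA is the sliding clamp, and its gene-end peak (chr2:132252639-132253140), shared with an end of Cds2, was the strongest of the replication genes. It held 4889, 4768 and 4515 in NTC, 5371, 5229.9 and 5321 in #2, and 5367, 4957 and 5213 in #4, above NTC in all hairpin libraries, at a log2 difference of 0.15 ± 0.03 (limma, adjusted p = 0.00021), but the sign turned with quantile scaling (-0.09, adjusted p = 0.0152) and the value was -0.00236 with cyclic loess (adjusted p = 0.959). Of the clamp loader, Rfc2 was lower (-0.20 ± 0.06, limma, adjusted p = 0.00786), while the starts of Rfc3 (0.01 ± 0.05), Rfc4 (-0.02 ± 0.04), Rfc5 (-0.01 ± 0.04) and Rfc1 (0.05 ± 0.05, a peak inside the annotated gene) did not pass. A weak peak at the far end of Rfc4, beside Eif4a2, rose from 174 ± 15.8 in NTC to 269.7 ± 11.2 in #2 (SD, n = 3), at 0.63 ± 0.12 with #2 (limma, adjusted p = 1.36e-05), and stood at 0.25 ± 0.12 with #4.

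Among genes that supply nucleotides and start S phase, the gene ends of Rrm1, Tyms and Ccne1 were lower, where 32.7% of all gene-end peaks were, and all 3 calls ended when centred on gene-end peaks (limma, adjusted p = 0.108, 0.209 and 0.0866). Rrm1, the large subunit of ribonucleotide reductase (chr7:102441474-102441975), held 1654, 1635 and 1613 in NTC, 1293, 1269 and 1298 in #2, and 1551, 1433 and 1591 in #4. Its fall was larger with #2 (-0.34 ± 0.05, limma, adjusted p = 1.13e-06) than with #4 (-0.10 ± 0.05, adjusted p = 0.164), and the difference of 0.24 ± 0.05 between them passed its own test (limma, adjusted p = 0.000705). Thymidylate synthase, Tyms (chr5:30073270-30073771), held 1209.5, 1216 and 1261 in NTC, 1168, 975 and 1003 in #2, and 1109, 1099 and 1064 in #4, lower in every hairpin library, at -0.20 ± 0.05 (limma, adjusted p = 0.00265). Cyclin E1, Ccne1, which with Cdk2 moves cells into S phase, had a start peak (chr7:38107365-38107866) of 1446, 1591 and 1605 in NTC, 1303, 1248 and 1223 in #2, and 1307, 1408 and 1432 in #4. That was a log2 difference of -0.23 ± 0.05 (limma, adjusted p = 0.000214), and its relative Ccne2 was at 0.07 ± 0.04 and did not pass. The small reductase subunit Rrm2 had no gene-end peak.

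**Figure D2:**
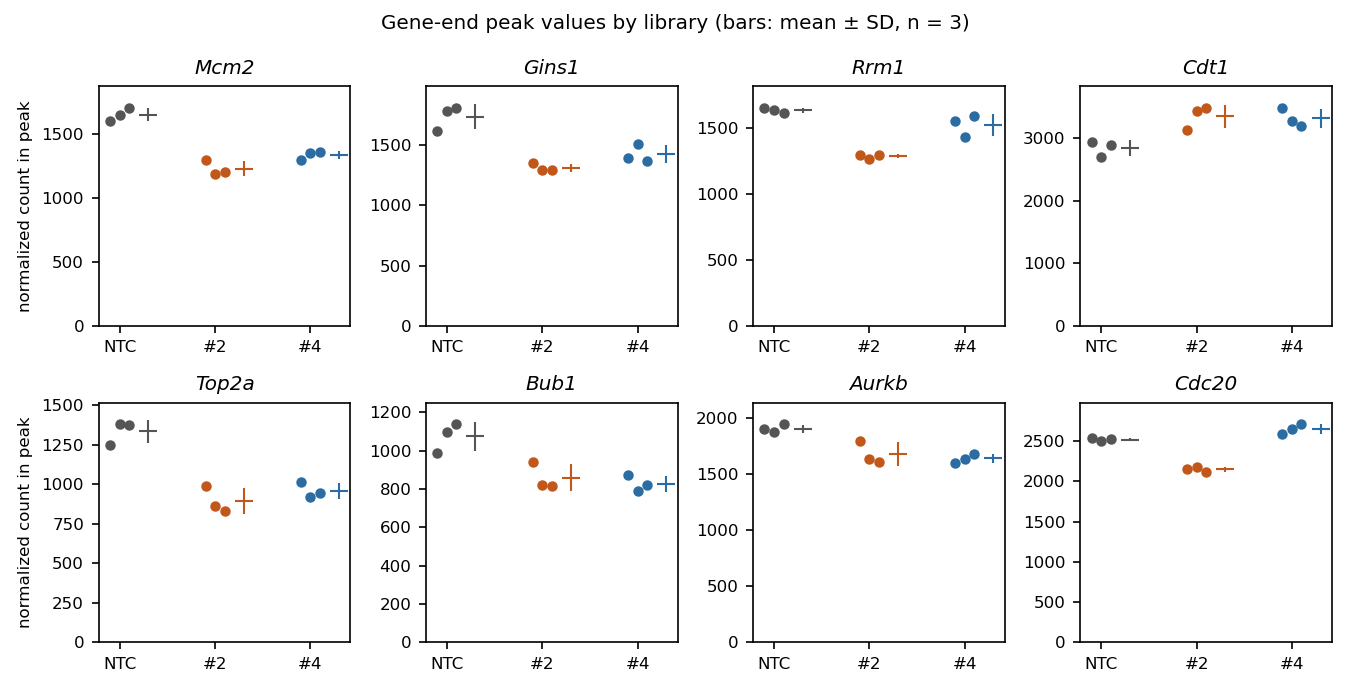
Normalized count of the gene-end peak in each of the 3 libraries of NTC, shMed1 #2 and shMed1 #4, with the group mean and SD beside them, for 4 replication genes (upper row) and 4 mitotic genes (lower row); axes start at 0. At Mcm2, Gins1, Top2a, Bub1 and Aurkb the hairpin libraries lie below the NTC libraries, at Cdt1 above, and at Rrm1 and Cdc20 the libraries of #4 lie above those of #2.

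Among the mitotic genes, the steepest fall of a strong peak was at Top2a, the topoisomerase that untangles sister chromatids. Its start peak (chr11:99024097-99024598), which contains the whole window with 6 CCAAT boxes, held 1252, 1381 and 1378 in NTC, 990.1, 865 and 829 in #2, and 1017, 918 and 946 in #4. All 6 hairpin libraries were below the lowest NTC library, and the log2 fold change was -0.53 ± 0.06 (limma, adjusted p = 1.47e-10), with -0.58 in #2 and -0.48 in #4. Mki67, the gene of the Ki-67 protein that coats mitotic chromosomes, was at -0.13 ± 0.06 and did not pass (limma, adjusted p = 0.0661).

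The kinases and checkpoint genes were lower at 5 of 6 gene-end peaks, 2 of them at Aurkb, where 32.7% of all gene-end peaks were lower. Centred on gene-end peaks, Bub1 and Aurka kept the call, while both Aurkb peaks (limma, adjusted p = 0.169 and 0.0826) and Plk1 (0.473) did not, and with #2 alone Plk1 (0.0951) and Cdc20 (0.157) did not pass either. Bub1, a checkpoint kinase at kinetochores (chr2:127831665-127832166), held 990.2, 1096 and 1138 in NTC, 942, 823 and 814 in #2, and 873, 788 and 821 in #4. That gave -0.35 ± 0.06 (limma, adjusted p = 5.13e-06) with no overlap between hairpin and NTC libraries. Aurka, the Aurora kinase of spindle poles (chr2:172370391-172370892, within 1 kb of Cstf1 also), held 2399, 2637 and 2522 in NTC, 2278, 1926 and 1945 in #2, and 2333, 2185 and 2174 in #4, at -0.24 ± 0.05 (limma, adjusted p = 3.83e-05). Aurkb, the Aurora kinase of centromeres (chr11:69045425-69045926), held 1897, 1868 and 1941 in NTC, 1796, 1629 and 1604 in #2, and 1598, 1635 and 1678 in #4, at -0.20 ± 0.05 (limma, adjusted p = 0.000407). For both kinases every hairpin library was below every NTC library. A weak peak at the other end of Aurkb was lower as well (-0.61 ± 0.22, limma, adjusted p = 0.0253), from 70.1 ± 24 in NTC to 35.7 ± 3.97 in #4 (SD, n = 3). Tested singly, it passed with #4 (-0.91) and not with #2, and the test between the hairpins did not pass there (-0.60). Plk1, the Polo kinase (chr7:122159057-122159558), was lower with #2 (-0.26 ± 0.06, limma, adjusted p = 0.000347) and at -0.07 ± 0.06 with #4, and the hairpins differed by 0.19 ± 0.06 (adjusted p = 0.0162). Cdc20, the activator of the anaphase-promoting complex (chr4:118437157-118437658), held 2538, 2499.9 and 2521 in NTC, 2156, 2177 and 2110.2 in #2, and 2583, 2654 and 2709 in #4. The libraries of #2 were below NTC (-0.23 ± 0.05, limma, adjusted p = 4.6e-05), while those of #4 were above NTC but did not pass (0.07 ± 0.05, adjusted p = 0.241).

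Cdk1 and its cyclins did not move together. The start peak of Cdk1 (chr10:69352614-69353115) held 2077, 2200.3 and 2057 in NTC, 1866, 1785 and 1808 in #2, and 2071, 1919 and 1931 in #4, so that #2 was below NTC and 1 library of #4 overlapped it. The log2 difference came to -0.16 ± 0.04 (limma, adjusted p = 0.00347), but -0.13 (adjusted p = 0.0643) without NTC replicate 2. Ccna2, cyclin A, had the strongest gene-end peak of all the members (chr3:36571914-36572415), shared with an end of Bbs7, at 5679, 5285 and 5335 in NTC, 5781, 5828 and 5759 in #2, and 6214, 6309.8 and 6105 in #4. It was the 1 mitotic gene-end peak that passed as higher, with a log2 difference of 0.14 ± 0.03 (limma, adjusted p = 0.000157), but with quantile scaling it was below NTC (-0.15, adjusted p = 1e-05), and with cyclic loess it was at -0.02 (adjusted p = 0.612). A weak peak at the other end of Ccna2, which lies inside Exosc9 and is not counted among the members (chr3:36564061-36564562), was lower at -0.54 ± 0.21 (limma, adjusted p = 0.0349). The cyclins B, Ccnb1 (0.04 ± 0.05) and Ccnb2 (-0.06 ± 0.05), did not pass.

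The shares of higher and lower gene-end peaks differed with peak strength, in the members and over the whole table. Of the 6 member peaks under 500, 1 was lower and 1 higher, where 23.1% of all gene-end peaks of that strength were lower and 7.88% higher. Of the 37 member peaks with a mean of 500 to 2500 normalized counts, 19 were lower and 1 higher, where 42.1% of all gene-end peaks of that strength were lower and 11.1% higher. Of the 8 member peaks of at least 2500, 1 was lower (Orc6) and 4 were higher (Cdt1, Orc2, Pcna and Ccna2), where 14.5% of all were lower and 44.7% higher. With quantile scaling Pcna and Ccna2 were below NTC, and Cdt1 and Orc2 did not pass. The part of peak strength in the members' calls was not tested. Counted by gene at RefSeq starts, peaks within 1 kb of a start gave 1 peak for each of 37 members, of which 17 were lower, 3 higher and 17 neither, where 35.0% of all peaks near a start were lower and 14.7% higher. By set, 12 of 28 replication starts and 5 of 9 mitotic starts were lower. Among the 17 lower starts, 4 windows held an E2F word, 5 a CHR word and 12 a CCAAT box. Among the 17 that did not pass, the counts were 5, 3 and 12, and among the 3 higher ones they were 0, 0 and 1.

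Away from gene ends, peaks of replication genes moved in both directions. Of their 88 other peaks, 16 were higher (18.2%) and 13 lower (14.8%) in the mean of both hairpins, where 23.6% of all peaks away from gene ends were higher and 14.8% lower. With #2 the counts were 19 higher and 11 lower, against 25.8% and 16.4% of all, and with #4 they were 10 higher and 9 lower, against 17.9% and 10.0%. In the mean of both hairpins the counts were 12 higher and 21 lower with equal totals, and 23 and 3 when centred on gene-end peaks. Over the whole table these scalings gave 12104 higher and 21010 lower, and 23954 and 4893. The lower counts varied with the library left out, and so did those of the whole table. The 13 were 7 without NTC replicate 2 and 3 without NTC replicate 3, where lower peaks of the whole table went from 13452 to 8993 and 8325. With #4 the 9 became 5, 2 and, without shMed1 #4 replicate 2, 4. Over the whole table the 9152 lower with #4 became 5819, 5500 and 6634. The 11 with #2 were 7 when any of NTC replicate 2, NTC replicate 3 or shMed1 #2 replicate 3 was left out. The 14781 lower with #2 over the whole table became 10931, 10348 and 11733 in that order. Of the 16 higher peaks, 8 belonged to 1 gene, Prim2. The median over the 88 peaks was 0.00 on the log2 scale, and 0.01 over all peaks away from gene ends.

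In 4 genes, Cdc45, Gins3, Prim2 and Rrm2, some peaks were higher and others lower in the mean of both hairpins. In Cdc45 the start peak fell while a peak deep inside the gene (chr16:18795451-18795952), 16271 bases from the start, rose. It held 3776, 3474 and 3234 in NTC, 4329, 4478 and 4619 in #2, and 4461, 4466 and 4221 in #4, all hairpin libraries above NTC, at 0.34 ± 0.04 (limma, adjusted p = 1.51e-10). A weaker peak 22750 bases from the start rose by 0.35 ± 0.06 (limma, adjusted p = 7.78e-06). Pola2 had a start peak that did not pass and an interior peak that rose. The peak 18915 bases from the start (chr19:5945041-5945542) held 3847, 3729 and 3597 in NTC, 4451, 4754 and 4940.4 in #2, and 4790.5, 4907 and 4719 in #4, at 0.35 ± 0.03 (limma, adjusted p = 6.95e-12). Prim2 is the longest of these genes, and 7 of its 9 gene-body peaks were higher, by 0.19 to 0.50 on the log2 scale. Of all peaks away from gene ends, 23.6% were higher. Just outside the gene lay 1 more higher peak (0.17 ± 0.04). That peak and the gene-body peak at 0.19 lost their calls with equal totals, quantile and cyclic loess scaling. The strongest gene-body peak (chr1:33657526-33658027) held 1822, 1689 and 1599.8 in NTC, 2078, 2149 and 2082 in #2, and 2044, 2162 and 2118 in #4, at 0.31 ± 0.04 (limma, adjusted p = 1.62e-07).

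**Figure D3:**
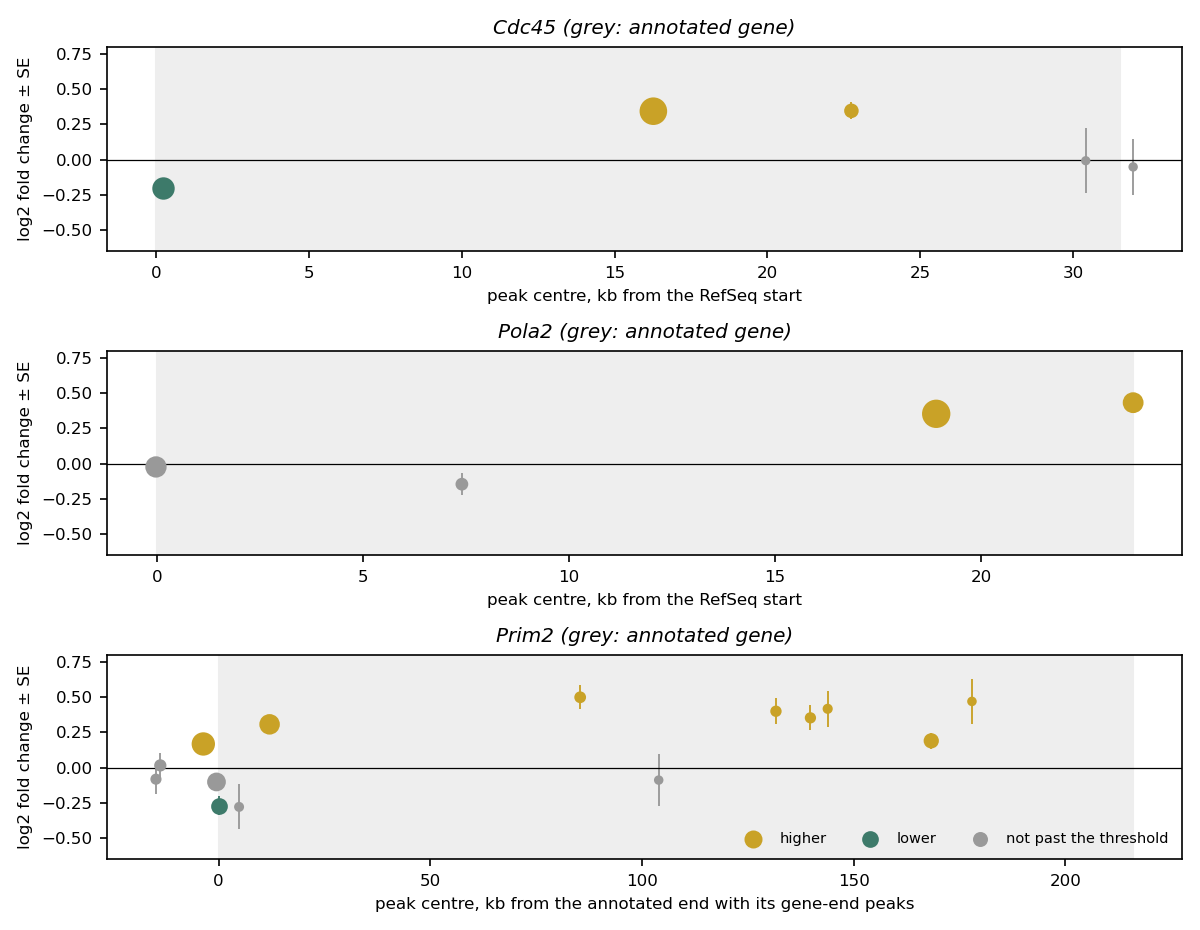
Log2 fold change with its standard error, mean of both hairpins against NTC, for every peak of Cdc45, Pola2 and Prim2, by distance of the peak centre in kb from the RefSeq start (Cdc45, Pola2) or from the annotated end that holds the gene-end peaks (Prim2). Larger points are stronger in NTC, and grey bands are the annotated genes. In Cdc45 and Pola2 the raised peaks lie away from the start. No RefSeq start was at hand for Prim2, where 1 raised peak lies 3.6 kb outside the plotted end and the others inside the gene.

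Other peaks followed single genes. A peak 9099 bases before the start of Rfc4 (chr16:23136579-23137080) rose with 582 ± 21.5 in NTC, 757 ± 19.6 in #2 and 769.6 ± 44.7 in #4 (mean ± SD, n = 3), at 0.39 ± 0.06 (limma, adjusted p = 1.25e-06). At Ccne1 an intergenic peak 22529 bases downstream of the start (chr7:38084711-38085212) held 1092, 1151 and 1228 in NTC, 942, 886 and 883 in #2, and 959.7, 1001 and 934 in #4 and fell along with the start peak, at -0.31 ± 0.06 (limma, adjusted p = 1.07e-05). Beyond Rrm2 there were 2 peaks that went opposite ways, a strong one that rose (0.23 ± 0.04, limma, adjusted p = 3.02e-05) and a weak one that fell (-0.60 ± 0.16, adjusted p = 0.00293). The weak one (chr12:24741553-24742054) held 101, 98.6 and 127 in NTC, 96.6, 66.8 and 66.5 in #2, and 63.5, 60.1 and 79 in #4, and it lost its call without NTC replicate 3 (adjusted p = 0.0561). Inside Cdc6, a peak 14262 bases from the start (chr11:98922163-98922664) held 174, 141 and 199 in NTC, 119, 96.7 and 108 in #2, and 149, 149 and 160.2 in #4, at -0.40 ± 0.12 (limma, adjusted p = 0.00805), and at -0.29 (adjusted p = 0.132) without NTC replicate 3.

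The 18 mitotic peaks away from gene ends were weak, and 15 of them had a log2 fold change under 0. Of these 3 were lower, 1 each at Cdk1 (-0.29 ± 0.11), Mki67 (-0.53 ± 0.18) and Top2a (-0.52 ± 0.20), with adjusted p = 0.0254, 0.0163 and 0.0343 (limma), and 0 were higher, also at an unadjusted p under 0.05 and with sample quality weights. That is 16.7% lower, where 14.8% of all peaks away from gene ends were lower and 23.6% higher. The 3 became 6 with equal totals, 1 with cyclic loess and 0 when centred on gene-end peaks. With sample quality weights 6 were lower, as at an unadjusted p under 0.05, and with a filter at a mean of 50 there were 5. The median was -0.17, against 0.01 over all peaks away from gene ends. Leaving out NTC replicate 1 gave 1 in place of the 3, and the count was 0 without NTC replicate 3, 1 without shMed1 #2 replicate 2 and 5 without shMed1 #4 replicate 3. Over the whole table the 13452 lower peaks became 11639, 8325, 12354 and 13120 in that order. With #2, 4 were lower and 1 higher, where 16.4% and 25.8% of all were, and the 4 became 1 and the 1 became 0 without shMed1 #2 replicate 2. With #4 the limma count was 0 in both directions, where 10.0% of all were lower and 17.9% higher. At an unadjusted p under 0.05 it was 3 lower and 0 higher, and with sample quality weights 1 was lower.

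The hairpins themselves differed at 23 of the 157 member peaks when #4 was tested against #2 (limma, adjusted p under 0.05). At gene ends 2 replication peaks were higher with #4 and 1 lower, and 4 mitotic peaks were higher and 0 lower (limma, with 1 lower at an unadjusted p under 0.05 and 0 with sample quality weights), where 11.5% of all gene-end peaks were higher with #4 and 3.70% lower. Elsewhere 9 member peaks were higher with #4 and 7 lower, where 7.90% of all were higher and 14.8% lower. The 4 mitotic gene-end peaks were those of Cdc20, Plk1, Ccnb2 and Ccna2, and their count fell to 1 or 2 when any 1 of the shMed1 libraries other than #2 replicate 1 was left out, and to 1 when centred on gene-end peaks. Leaving out shMed1 #2 replicate 2 or shMed1 #4 replicate 2 each brought the 23 peaks to 13.

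The clearest difference lay 17030 bases before the start of Gins3, at an intergenic peak (chr8:95616279-95616780) that held 1470.1, 1413 and 1489 in NTC, 2185, 2184 and 2083 in #2, and 1633, 1428 and 1342 in #4. It rose with #2 (0.56 ± 0.06, limma, adjusted p = 1.9e-11) and was at 0.01 ± 0.06 with #4, a difference of -0.56 ± 0.06 (limma, adjusted p = 1.29e-10), while the start peak of the same gene was at -0.23 with #2 and -0.24 with #4. An intergenic Ccne1 peak (chr7:38077137-38077638) held 1013, 958 and 942 in NTC, 1242, 1201 and 1123 in #2, and 875, 979.7 and 900.3 in #4, a difference of -0.37 ± 0.06 (limma, adjusted p = 1.32e-05). An Orc2 peak inside the gene, 105 bases from another RefSeq start of Orc2 (chr1:58501071-58501572), held 388, 366 and 407 in NTC, 489, 431 and 516 in #2, and 352, 312 and 374 in #4, a difference of -0.47 ± 0.09 (limma, adjusted p = 0.00012). In all 3 the libraries of #4 lay below those of #2. In the other direction, Cdc20 differed by 0.30 ± 0.05 (limma, adjusted p = 1.08e-06), and an Orc5 gene-body peak (chr5:22539083-22539584) held 494, 495 and 517 in NTC, 434, 453 and 468 in #2, and 533, 599 and 615 in #4, a difference of 0.36 ± 0.08 (limma, adjusted p = 0.000601). Mki67 had 3 peaks higher with #4 than with #2, 2 inside the gene and 1 outside, by 0.44, 0.66 and 0.30. Centred on gene-end peaks, those at 0.44 and 0.66 lost their calls (limma, adjusted p = 0.0963 and 0.054). The one at 0.44 also lost it with cyclic loess (limma, adjusted p = 0.0559) and quantile scaling (0.0575).

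**Figure D4:**
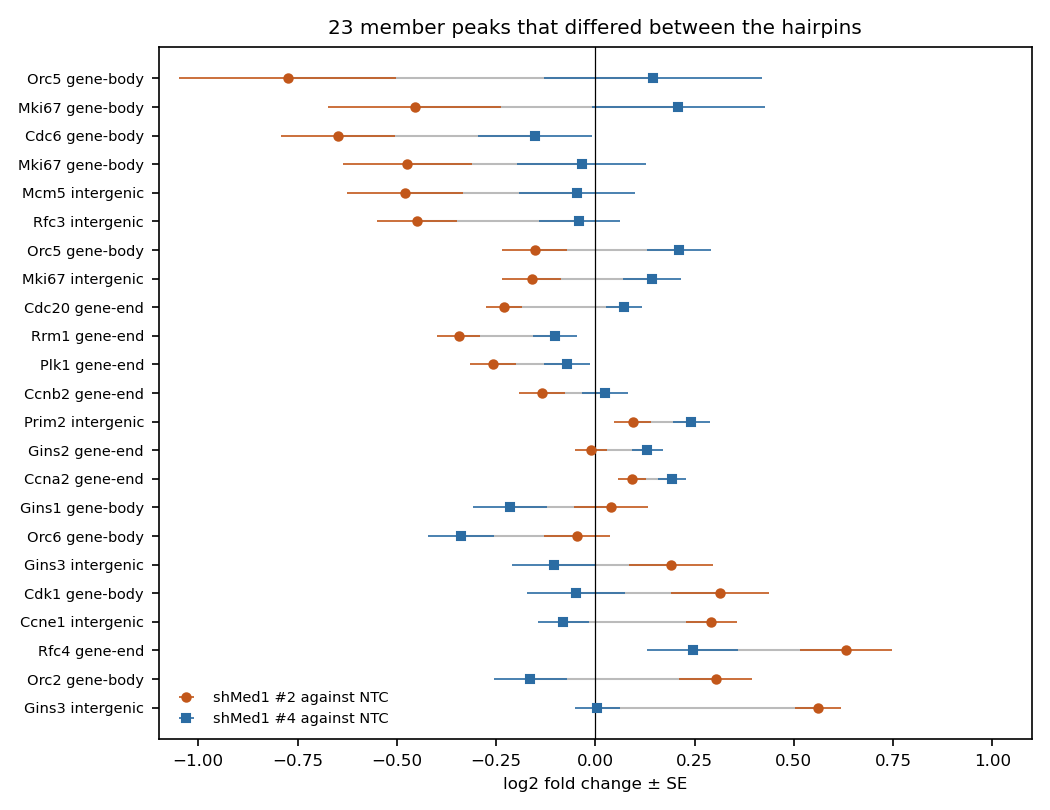
Log2 fold change against NTC with its standard error in shMed1 #2 (circles) and shMed1 #4 (squares), joined by a line, for the 23 member peaks where #4 differed from #2. Gene-body and intergenic peaks make up 16 of the 23, and the widest gap among strong peaks is at the intergenic peak of Gins3 at the foot of the plot.

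The wider pathways were described by lists that hold no member. Of 44 gene-end peaks of 35 other replication genes, 13 were lower (29.5%) and 4 higher (9.09%) in the mean of both hairpins, where 32.7% and 14.4% of all gene-end peaks were. With quantile scaling 29 were lower (65.9%) and 4 higher, where 47.7% of all were lower. Centred on gene-end peaks 4 were lower and 7 higher, where 12.7% of all were lower and 26.4% higher. The 13 fell to 8 once NTC replicate 2 was left out and grew to 20 without shMed1 #2 replicate 1, where 24.8% and 36.1% of all were lower. Chaf1a, a subunit of the chromatin assembly factor at the fork, was lower at -0.36 ± 0.05 (limma, adjusted p = 1.3e-08), as were the fork protection factor Tipin at -0.37 ± 0.06 and Atad5, which helps to unload PCNA, at -0.50 ± 0.08. Dut, the dUTPase, was higher at 0.33 ± 0.04 (limma, adjusted p = 6.95e-10), as were the uracil glycosylase Ung at 0.23 ± 0.04 and the cohesion factor Dscc1 at 0.19 ± 0.04, the last at 0.10 (limma, adjusted p = 0.0617) with cyclic loess.

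Of 72 gene-end peaks of 53 other mitotic genes, 42 were lower (58.3%) and 6 higher (8.33%), where 32.7% of all gene-end peaks were lower and 14.4% higher. Their median log2 fold change was -0.17, against -0.07 over all. With each library centred on its median gene-end peak, 16 were lower (22.2%) and 13 higher, where 12.7% of all gene-end peaks were lower and 26.4% higher. The condensin subunit Smc4 was lower at -0.52 ± 0.06 (limma, adjusted p = 2.18e-10), the Cdk-binding protein Cks2 at -0.40 ± 0.05, and Birc5, the survivin subunit of the complex that holds Aurkb, at -0.31 ± 0.04. The kinetochore protein Cenpf was higher at 0.25 ± 0.04 (limma, adjusted p = 3.81e-07), with the condensin II subunit Ncaph2 at 0.22 ± 0.04 and the cytokinesis factor Ect2 at 0.19 ± 0.04. With cyclic loess and quantile scaling Ncaph2 was at 0.10 and 0.09, and Ect2 lost its call, at 0.08 and 0.10 (limma, adjusted p = 0.111 and 0.0517). The regulators of both programmes, E2F and DREAM factors, had 8 of 26 gene-end peaks lower (30.8%) and 6 higher (23.1%), where 32.7% of all were lower and 14.4% higher. Quantile scaling gave 12 and 4, where 47.7% of all were lower and 7.40% higher. Centring on gene-end peaks gave 2 and 9, where 12.7% of all were lower and 26.4% higher. The 8 fell to 5 with NTC replicate 2 left out and to 4 with NTC replicate 3 left out, where 24.8% and 23.1% of all were lower. Rbl1, the p107 pocket protein, was lower at -0.36 ± 0.06 (limma, adjusted p = 5.82e-07), with the repressor E2f6 at -0.30 ± 0.07 and the MuvB subunit Lin37 at -0.19 ± 0.05, the last at -0.08 (limma, adjusted p = 0.232) when centred. Tfdp2, a partner of E2F factors, was higher at 0.25 ± 0.04 (limma, adjusted p = 5.07e-06), with the activators E2f1 at 0.19 ± 0.03 and E2f3 at 0.18 ± 0.04. Both activators lost their call with cyclic loess, at 0.05 and 0.07 (limma, adjusted p = 0.189 and 0.151), and with quantile scaling, at 0.01 and 0.07 (0.755 and 0.116). No difference between the shares of these lists was tested.

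**Figure D5:**
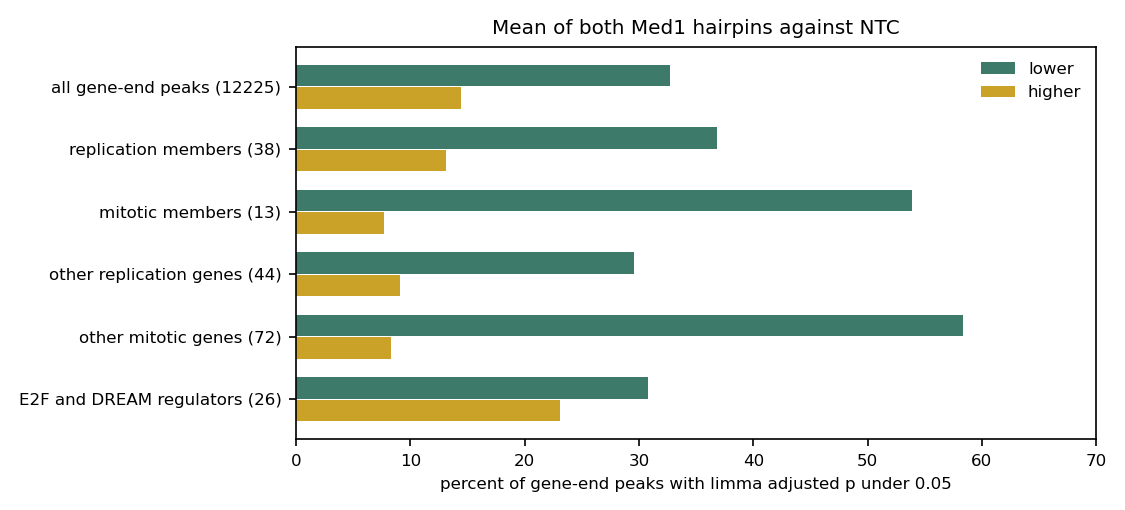
Percent of gene-end peaks that were lower or higher in the mean of both hairpins against NTC (limma, adjusted p under 0.05) for all gene-end peaks, the members and the wider lists, with the number of peaks in brackets. The lower share is 53.8% in mitotic members and 58.3% in other mitotic genes, against 32.7% of all, and these shares depend on the scaling: centred on the median gene-end peak they are 23.1%, 22.2% and 12.7%.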

How the data were processed

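Open chromatin was measured by ATAC-seq in 9 libraries, 3 in each of 3 groups, mapped from the sample titles. The submitters' processing notes name Trim Galore, BWA, MACS2, featureCounts and Subread, and the builds mm10 and GRCm38. For their versions, read filters and any transposase offset, nothing was given in the sources used here. A file of the authors, deposited for the whole series, lists 75936 peaks, each 501 bases from start to end, whose signal is the DESeq2-normalized count per peak and library, that is, reads divided by a size factor per library. Whether coordinates start at 0 or 1 is not stated, and they are printed as deposited. Reads outside peaks were not used here, so full depth is unknown. Totals of the normalized values were 41.2 to 44.2 M, and the SD of the members' gene-end peaks in NTC had a median of 3.67% of the mean.

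Values plus a pseudocount of 1 were taken to log2 and fitted with limma 3.58.1 with trend (R 4.3.3) on the 75930 peaks with a mean of at least 10, with 1 mean per group and no further scaling. Fold changes are on that log2 scale. Two-sided p-values were adjusted per contrast with the Benjamini-Hochberg method across the peaks tested, and 0.05 was the threshold. Log2 fold changes carry limma standard errors, and errors of means are SDs with n = 3. The fit was checked on simulated data with the same log2 spread at every peak, so the check did not cover a spread that changes with peak level. Libraries of 1 group were not identical. The labels name no batch. A list of blood cell markers is not reported here.

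Genes and ends came from RefSeq annotation of GRCm38.p6 without strand, so gene-end peaks include both ends. Starts and the 250 bases before them came from RefSeq, which gave 38 of the 48 members. A gene-end or start peak of a member that also lies at another gene's end was kept and named so. Values per library are given for gene-end peaks ranked by adjusted p, taking both hairpins' mean against NTC: up to 10 lower and 3 higher in replication genes, and 5 lower and 3 higher in mitotic genes. Up to 4 other peaks each way, and up to 3 each way in #4 against #2, follow the same rule. Of each wider list, up to 3 genes each way are named. Members, lists and tests were chosen with earlier results of these data known, and patterns already seen there are not independent support. Alternatives covered the pseudocount, the filter, the scaling, sample weights, the replicate block, the groups in the fit, the gene-end distance and each library left out. Robust variance moderation and counting of peaks at a member's end wherever they lie were added after seeing the data.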

Additional observations from a re-analysis of the deposited data

Results flagged for a closer look

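The hairpins differed by the test of #4 against #2 (limma, adjusted p under 0.05) at 23 member peaks, of which 15 were higher and 8 lower with #4. That was 9.55% higher and 5.10% lower of the 157 member peaks. Over the whole table, 6439 of the 75930 peaks tested were higher with #4 and 9897 lower. Values are log2 differences of #4 from #2. Among replication genes, the lower ones were the intergenic Gins3 peaks at -0.56 and -0.29, the gene-body peaks of Orc2 at -0.47, Orc6 at -0.29 and Gins1 at -0.25, the far-end peak of Rfc4 at -0.39 and the intergenic Ccne1 peak at -0.37. The higher ones were the gene-end peaks of Rrm1 at 0.24 and Gins2 at 0.14, the gene-body peaks of Orc5 at 0.36 and 0.92 and of Cdc6 at 0.50, and the intergenic peaks of Rfc3 at 0.41, Mcm5 at 0.43 and Prim2 at 0.15. Among mitotic genes, a gene-body peak of Cdk1 was lower at -0.36. The gene-end peaks of Cdc20 at 0.30, Plk1 at 0.19, Ccnb2 at 0.16 and Ccna2 at 0.10 were higher, as were the gene-body peaks of Mki67 at 0.44 and 0.66 and its intergenic peak at 0.30. The Orc5 peak at 0.92 is weak, with NTC and hairpin means under 100 normalized counts. No cause of these differences was tested.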

How the results depend on the processing

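The 59 member peaks called in the mean of both hairpins, 61 with #2, 41 with #4 and 23 between the hairpins stayed within 1.5 times under the other pseudocount, filters, scalings, sample weights, group choices and peak classes. Leaving out 1 library gave 41 to 64, 47 to 63, 24 to 43 and 13 to 24, with the lowest values without NTC replicate 3 (24), shMed1 #2 replicate 2 (13) and shMed1 #4 replicate 2 (13). The same-numbered libraries did not deviate together (r from -0.08 to 0.03), so the numbers do not pair them, and a fit with the replicate block gave 59, 61, 41 and 21. The split into lower and higher depended on the scaling. In the mean of both hairpins 37 lower and 22 higher became 57 and 15 with equal totals, 46 and 18 with quantile scaling, 43 and 20 with cyclic loess, and 10 and 34 when centred on gene-end peaks. In the same order, 35 and 26 with #2 became 54 and 20, 48 and 21, 48 and 22, and 13 and 33. For #4, 25 and 16 became 45 and 13, 37 and 11, 34 and 11, and 7 and 29. Between the hairpins, 8 and 15 became 6 and 22, 6 and 16, 7 and 15, and 10 and 7. Over all 75930 peaks tested, 13452 were lower and 16796 higher in the mean of both hairpins. The counts were 14781 and 17928 with #2, 9152 and 13150 with #4, and 9897 and 6439 between the hairpins. The split of the whole table in the mean of both hairpins moved too. In the same order it became 21010 and 12104, 15203 and 14947, 14131 and 15519, and 4893 and 23954. The median of all peaks lay at -0.09 with equal totals in the mean of both hairpins and at 0.11 when centred on gene-end peaks, which is the construction of these scalings.

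Of the 59, 61, 41 and 23 peaks called, 24, 30, 17 and 12 kept call and direction under all 4 other scalings. The like count over all called peaks of the whole series was not made. For the member peaks whose values per library follow the naming rule, 611 values under the alternatives, in the mean of both hairpins or between the hairpins, kept direction and call, 18 lost the call and 4 turned: Pcna to -0.0898 with quantile scaling and -0.00236 with cyclic loess, and Ccna2 to -0.15 and -0.0187. The cause was not tested. Centring on gene-end peaks ended the calls of Rrm1, Ccne1, Cdc45, Prim2, Tyms, Mcm6, Aurkb, Cdk1, Orc1 and Cdc6. Equal totals ended those of Pcna (adjusted p = 0.0536) and Ccna2 (0.0613), both by limma. The planned count models, edgeR and DESeq2, were not run, since whole reads could not be recovered from the deposited values for nearly all peaks. The 50 member peaks with a mean under 100 normalized counts had a median standard error of 0.191 on the log2 scale, against 0.0592 in the other 107, so changes detectable in strong peaks could be missed there.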
